A study of Mus musculus with 6 samples.

Results

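The costimulatory TNF superfamily genes described here are 10: the receptors Cd40, Cd27, Tnfrsf4 (OX40), Tnfrsf9 (4-1BB), Tnfrsf18 (GITR) and Tnfrsf14 (HVEM), and the ligands Cd40lg, Cd70, Tnfsf4 (OX40 ligand) and Tnfsf8 (CD30 ligand). They were taken by name, and every array probe whose accession a RefSeq table assigned to one of these symbols was kept. This gave 10 probes for 8 of the 10 genes, out of 41006 probes on the array, of which those with a symbol cover 12254 genes. Cd40 and Tnfsf8 had 2 probes each. No probe was matched to Cd27 or to Tnfrsf14, and these genes have no values here. All 10 probes passed the filter on dim probes and were well above background in both channels on all 6 arrays.

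Mesenteric lymph nodes of naive adult mice were measured on 6 two-colour Agilent arrays. In 3 arrays the RNA came from the strain labelled B-TNF KO, called B_TNF_KO here, and in 3 from the strain labelled TB-TNF KO double, called TB_TNF_KO. Both strains are labelled as gene knock outs and, as the series title frames it, lack TNF from B cells or from both T and B cells, so loss of B cell TNF is common to the groups and no wild-type sample was analysed here. What drives the deletion is not given in the sources used here. Each sample was the pooled nodes of 3 mice, labelled male except TB_TNF_KO replicate 2, labelled female, and was dyed with Cy3. Every array also carried the same Cy5-labelled RNA, a pool from 11 mouse cell lines that include a B-lymphocyte and a T-lymphocyte line. All values below are log2 ratios of node over this reference RNA unless a channel is named, and all differences are TB_TNF_KO minus B_TNF_KO on the log2 scale.

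These genes encode membrane proteins that carry a second signal between lymphocytes and the cells that present antigen to them. Activated helper T cells display CD40 ligand, which engages CD40 on B cells and dendritic cells and drives B cell activation and germinal centre formation. OX40, 4-1BB, GITR and CD27 sit mainly on T cells and promote their expansion and survival when bound by OX40 ligand, 4-1BB ligand, GITR ligand and CD70. The receptors lack enzyme activity and signal through TRAF adaptor proteins to NF-kB.

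Some facts about the libraries bear on every value. TB_TNF_KO replicates 1 and 2 differed in the sample channel by 0.95 times as much (SD over probes) as in the reference channel, which held the same RNA, against 1.05 to 1.59 times for the 14 other pairs of arrays. They were therefore counted as 1 sample, giving 3 samples against 2. The same arrays had Y-linked medians of -2.06 and -1.95, where the 4 others lay between 0.05 and 1.61, so that the male label of TB_TNF_KO replicate 1 goes against its values. Exocrine pancreas transcripts had medians of 2.94 to 4.42 on replicates 1 and 2 of both groups and of -0.02 and -0.01 on replicate 3 of both. Markers of the labelled tissue were present, with medians of 2.07 to 2.39 for the T cell list and 2.38 to 3.08 for the B cell list. The images of each group were extracted on a day of their own, so that day and group cannot be told apart. Tnf itself was read by 2 probes, which differed by -1.09 (SE 0.10, limma adjusted p = 0.055) and by -0.26 (SE 0.06, adjusted p = 0.099). In both, all TB_TNF_KO arrays lay below all B_TNF_KO arrays, as in 17.0% of all probes. Where these probes sit relative to the deletion was not determined.

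The probes are 60-base oligonucleotides, and the first 30 bases of 4 of them are shown because the results turn on these 4. Capitals mark G and C, since group differences on these arrays followed the GC content of the probe.
Cd40 probe 1: tGGaaGattatCCCGGtCataaCaCCGCtG
Cd40 probe 2: taaataaatCtGtaattatttataCaatGG
Tnfrsf18: GCGGaaGtGGGtGtatGaGaGCGGtGaGtt
Tnfrsf4: tCtGGGCtttCCtatGtatGCtatGCataC
Over the whole 60 bases, Cd40 probe 1 held 34 G or C (56.7%) and Cd40 probe 2 held 21 (35%). The Tnfrsf18 probe held 33 (55%) and the Tnfrsf4 probe 27 (45%). The Cd40 probes were designed on different transcript accessions of the gene, NM_170704 for probe 1 and NM_011611 for probe 2. Among all probes of up to 35% GC, 23.2% had lower values in TB_TNF_KO at an unadjusted p under 0.05, against 2.24% of probes above 55% GC. Cd40 probe 1 falls in the class above 55% GC. Tnfrsf18 falls in the class from above 50% to 55%, where 3.71% of probes were lower, and Cd40 probe 2 in the class of up to 35%. Whether GC content had a part in the difference of any single probe was not tested.

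Against the reference RNA the member genes lay at several levels, which are given as a description. The receptor genes Cd40, Tnfrsf4 and Tnfrsf18 had normalised log2 ratios above 0 on every array where they were measured. Such a ratio places a probe relative to the other probes of its array. Before normalisation the node intensity could be the lower, as for Tnfrsf18 on TB_TNF_KO replicate 2 (1267 against 1618). Averaged over the arrays, the node was 3.26-fold over the reference for Cd40 probe 1, 2.33-fold for Cd40 probe 2, 3.28-fold for Tnfrsf4 and 2.48-fold for Tnfrsf18. These mean ratios lay at the 97.7th, 95.9th, 97.8th and 96.5th percentiles of all probes tested. The ligand gene Tnfsf8 was 1.93-fold over the reference with probe 1 and 1.81-fold with probe 2. Cd40lg, Cd70 and Tnfsf4 were near 0 throughout, and on no array did any of them exceed 0.25 in size. That was so for 49.9% of all probes. Tnfrsf9, a receptor induced on activated T cells, was the member with the lowest mean ratio, at 0.71-fold of the reference.

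**Figure D1:**
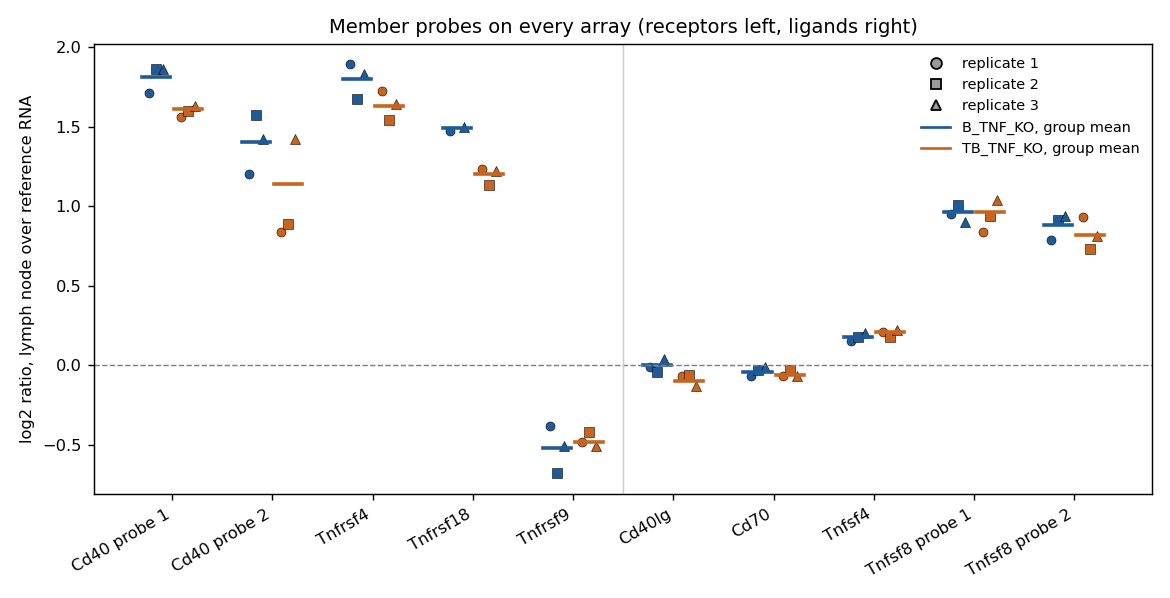
Log2 ratio of lymph node over reference RNA (vertical axis) for each of the 10 member probes (horizontal axis), with 1 point per array, coloured by group and shaped by replicate number. Lines are group means, with TB_TNF_KO replicates 1 and 2 averaged first. The groups are apart for Cd40 probe 1, Tnfrsf18 and Cd40lg and overlap for the 7 other probes.

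The comparison asked whether these genes differed when TNF was lacking from T cells in addition to B cells. By limma, 0 of the 10 member probes passed the adjusted threshold of 0.05 in either direction, where 0.0147% of all 40790 probes tested passed as lower and 0% as higher. At an unadjusted p under 0.05, 2 member probes were lower and 0 higher, against 11.2% and 5.02% of all probes. In 3 member probes all TB_TNF_KO arrays lay below all B_TNF_KO arrays, as in 17.0% of all probes, and in 0 they lay above. By sign alone 7 were lower and 3 higher, against 55.0% lower over all probes. With the 6 arrays counted separately, 1 member probe passed the adjusted threshold as lower (4.58% of all probes) and 0 as higher (1.46%). In the sample channel alone 1 was lower and 1 higher at an unadjusted p under 0.05, against 11.7% and 10.8% of all probes. In the reference channel, which held the same RNA throughout, 3 of the 10 differed at that level, as did 23.0% of all probes. The median difference of the member probes was -0.08, beside -0.01 over all probes. The share of members called, or without overlap, was thus not far from the background of the array. With the replicate number as a block and the 6 arrays counted separately, 1 member probe passed, Cd40 probe 1, where the same fit called 2535 probes lower and 738 higher.

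**Figure D2:**
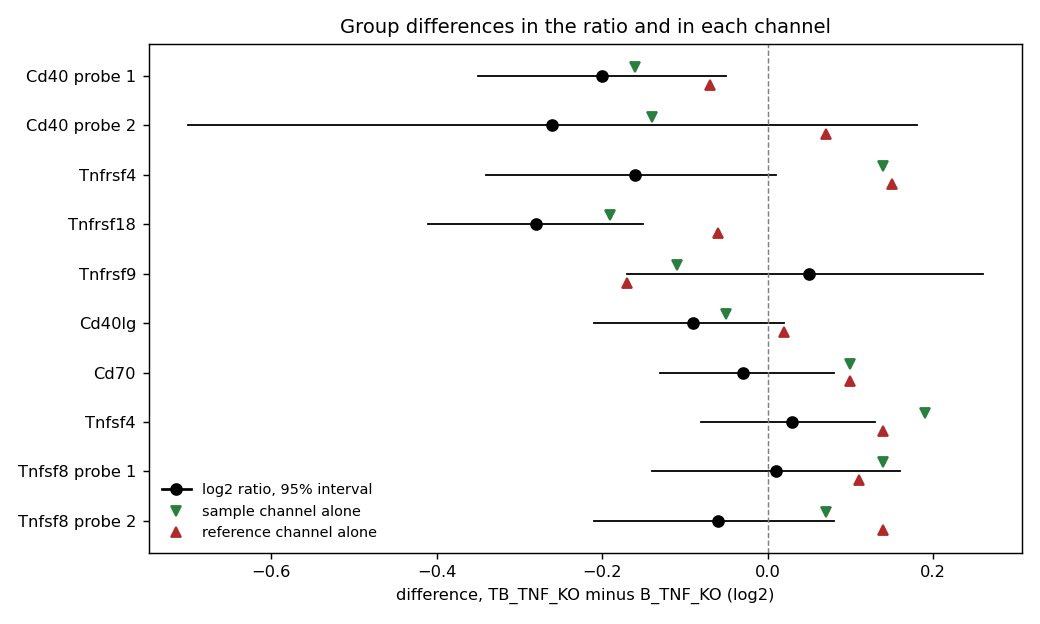
Differences TB_TNF_KO minus B_TNF_KO on the log2 scale (horizontal axis) for each member probe. Black points are differences of the log2 ratio with 95% intervals from limma, and triangles are the differences in the sample channel alone (green) and the reference channel alone (red). The intervals of Cd40 probe 1 and Tnfrsf18 lie below 0, and the 8 others include it. The channels were scaled apart from the ratio, so their differences need not add up to that of the ratio.

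Tnfrsf18 encodes GITR, a receptor that is abundant on regulatory T cells and rises on other T cells after activation. Its log2 ratios were 1.47 and 1.50 on B_TNF_KO replicates 1 and 3, and 1.23, 1.13 and 1.22 on TB_TNF_KO replicates 1, 2 and 3. The spot on B_TNF_KO replicate 2 had been marked by the scanner software as uneven in the sample channel and was left out, so this gene was fitted with 2 samples against 2. The groups did not overlap. Means were 1.49 ± 0.02 (SD, n = 2) and 1.20 ± 0.03 (SD, n = 2), a difference of -0.28 (SE 0.05, 95% interval -0.41 to -0.15), or 1.22-fold. Its unadjusted p was 0.0025 and its limma adjusted p 0.089. With the uneven spot kept, the B_TNF_KO replicate 2 value was 1.36, still above all TB_TNF_KO arrays, and the difference was -0.24 (SE 0.06, adjusted p = 0.12). Counting the 6 arrays separately gave an adjusted p of 0.030, and adding the replicate block to that fit gave 0.059.

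For Tnfrsf18 the node channel differed more than the reference channel. In the sample channel alone the difference was -0.19 (unadjusted p = 0.045 by limma), and in the reference channel alone it was -0.06. These values do not add up to the difference of the ratio, which was normalised apart from the channels. The software's own error for a single ratio of this spot was 0.18 to 0.20 on the log2 scale, per the deposited files. The difference of the ratio was -0.29 over replicates 1 and 2, and -0.28 for replicate 3. In the former, B_TNF_KO replicate 1 stood alone against TB_TNF_KO replicates 1 and 2 counted as 1 sample. Of the regulatory T cell marker list, 6 of 8 genes were measured, with 0 lower and 1 higher at an unadjusted p under 0.05. By sign 5 were lower and 1 higher, against 55.0% lower over all probes. The median difference of the list was -0.11, and -0.03 in the sample channel alone. Its array medians ran from 0.60 to 0.86 (B_TNF_KO) and from 0.68 to 0.98 (TB_TNF_KO). For the T cell list, 13 of 14 genes were measured, and 3 were lower and 0 higher, against 11.2% and 5.02% of all probes. Array medians of the T cell list were 2.13 to 2.39 and 2.07 to 2.23. The part of these cells was not tested. In pooled nodes, fewer cells of a type and less RNA per cell cannot be told apart.

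Cd40, the receptor of B cells, dendritic cells and macrophages for the helper signal of T cells, was read by 2 probes. Probe 1, the brighter, had log2 ratios of 1.71, 1.86 and 1.86 on B_TNF_KO replicates 1, 2 and 3. On TB_TNF_KO replicates 1, 2 and 3 it had 1.56, 1.60 and 1.63. All TB_TNF_KO arrays were thus below all B_TNF_KO arrays. The means were 1.81 ± 0.08 (SD, n = 3) and 1.61 ± 0.04 (SD, n = 2), a difference of -0.20 (SE 0.06, 95% interval -0.35 to -0.05), or 1.15-fold. The unadjusted p was 0.017 and the limma adjusted p 0.19. Counting the 6 arrays separately gave an adjusted p of 0.062, and with the replicate block in that fit it was 0.043.

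The difference at Cd40 probe 1 was -0.16 in the sample channel and -0.07 in the reference channel. These values do not add up to the difference of the ratio, which was normalised apart from the channels. Local background-subtracted intensities of the node RNA were 448, 430 and 597 in B_TNF_KO and 334, 312 and 400 in TB_TNF_KO, and those of the reference RNA were 189, 180 and 203, and 219, 215 and 205. These are intensities before scaling between arrays, and the whole-array medians of the node channel were also lower in 2 of the 3 TB_TNF_KO arrays than in any B_TNF_KO array. The difference of the ratio was -0.20 over replicates 1 and 2 and -0.23 for replicate 3. Leaving out single arrays moved it between -0.25 and -0.18.

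Cd40 probe 2 gave log2 ratios of 1.20, 1.57 and 1.42 in B_TNF_KO and 0.84, 0.89 and 1.42 in TB_TNF_KO. TB_TNF_KO replicates 1 and 2, counted as 1 sample, were low, while replicate 3 equalled the B_TNF_KO replicate of the same number. The groups overlapped. The means were 1.40 ± 0.19 (SD, n = 3) and 1.14 ± 0.39 (SD, n = 2), and the difference of -0.26 had an interval of -0.70 to 0.18 (SE 0.18, adjusted p = 0.57 by limma). It was -0.52 over replicates 1 and 2 and -0.01 for replicate 3. Without TB_TNF_KO replicates 1 and 2 it was 0.02.

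Both channels of Cd40 probe 2 varied between arrays. On the B_TNF_KO arrays its log2 reference signal was 7.72, 7.44 and 7.87, and on the TB_TNF_KO arrays it was 8.15, 7.83 and 7.5. Its sample signal was 8.14, 8.23 and 8.44, and 8.21, 8.01 and 8.15. The highest reference signal and the lowest sample signal were thus on TB_TNF_KO replicates 1 and 2, the arrays with the low ratios. The group difference was -0.14 in the sample channel and 0.07 in the reference channel. The probe was dim, with background-subtracted reference intensities of 116 to 250. Both Cd40 probes therefore had a lower mean in TB_TNF_KO, but only probe 1 did so with groups apart.

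**Figure D3:**
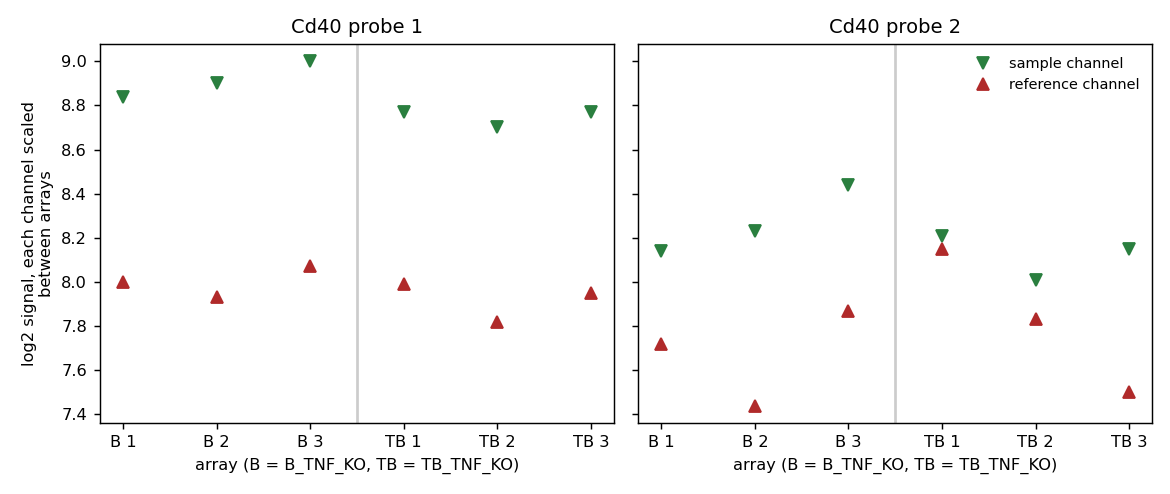
Log2 signal of the 2 Cd40 probes (vertical axis, each channel scaled between arrays by quantiles) on the 6 arrays (horizontal axis), for node RNA (green) and reference RNA (red). For probe 1 the reference signal stays between 7.82 and 8.07 while the node signal is lower in TB_TNF_KO; for probe 2 the reference signal runs from 7.44 to 8.15.

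Markers of the cells that carry CD40 are given beside it. Of the B cell list 8 of 11 genes were measured. At an unadjusted p under 0.05, 3 of them were lower and 0 higher, against 11.2% and 5.02% of all probes. By sign 5 were lower and 3 higher, against 55.0% lower over all probes. The array medians of the B cell list were 3.05 to 3.08 in B_TNF_KO and 2.38 to 2.77 in TB_TNF_KO. Such a median rests on the genes in the middle of the list. The median of the gene differences was -0.09, and -0.07 in the sample channel alone. Of the dendritic cell list 8 of 11 genes were measured. At the same level 5 were lower and 0 higher, against the same 11.2% and 5.02%, and by sign 6 were lower and 2 higher. Array medians were 1.81 to 1.90 in B_TNF_KO and 1.59 to 1.76 in TB_TNF_KO. The median difference of the dendritic cell genes was -0.18, and 0.01 in the sample channel alone. The NK cell list (4 of 7 measured) had 1 lower gene and 0 higher, and the adipocyte list (7 of 8) had 0 and 0. The same 11.2% and 5.02% of all probes stand beside these counts. The part of these cells in the Cd40 values was not tested.

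Cd40lg, the X-linked ligand gene, had log2 ratios of -0.01, -0.04 and 0.04 in B_TNF_KO and -0.07, -0.06 and -0.13 in TB_TNF_KO. The TB_TNF_KO arrays were all the lower, with values that stayed close to the reference. The difference was -0.09 (SE 0.05, 95% interval -0.21 to 0.02, limma adjusted p = 0.41), or 1.07-fold. It was -0.05 in the sample channel alone. TB_TNF_KO replicates 1 and 2, the arrays with the lowest Y-linked medians, were counted as 1 sample. A part of sex in the Cd40lg values was not tested. The software's own error for a single ratio of this spot was 0.17 to 0.19 on the log2 scale. Set beside its receptor, ligand and receptor both had lower values in TB_TNF_KO, and neither passed the adjusted threshold.

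Tnfrsf4 encodes OX40, which T cells display after activation and regulatory T cells of the mouse carry constitutively. Its log2 ratios were 1.89, 1.67 and 1.83 in B_TNF_KO and 1.72, 1.54 and 1.64 in TB_TNF_KO. The groups overlapped, since TB_TNF_KO replicate 1 lay above B_TNF_KO replicate 2. Within each replicate number the TB_TNF_KO array was the lower, though these numbers pair the groups only in part. Over all probes, deviations of TB_TNF_KO replicate 1 correlated by 0.43 with B_TNF_KO replicate 2 and by 0.13 with B_TNF_KO replicate 1. The difference of Tnfrsf4 was -0.16 (SE 0.07, 95% interval -0.34 to 0.01, adjusted p = 0.34 by limma). With the 6 arrays counted separately, which splits the TB_TNF_KO replicates treated as 1 sample here, its unadjusted p was 0.052 by limma, and with the replicate block in that fit it was 0.0070 (adjusted p = 0.067). The sign was not shared by the node channel: in the sample channel alone Tnfrsf4 differed by 0.14, and in the reference channel by 0.15 (unadjusted p = 0.038). Both channels were thus brighter in TB_TNF_KO by similar amounts. They were scaled apart from the ratio, and their differences do not add up to the -0.16 of the ratio.

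The ligand of OX40, encoded by Tnfsf4 and displayed by antigen-presenting cells, had log2 ratios of 0.15, 0.18 and 0.20 in B_TNF_KO and 0.21, 0.18 and 0.22 in TB_TNF_KO. These values spanned 0.07 over the 6 arrays. The difference was 0.03 (SE 0.04, 95% interval -0.08 to 0.13, limma adjusted p = 0.82). In the sample channel alone it was 0.19 (unadjusted p = 0.021) and in the reference channel 0.14 (unadjusted p = 0.032), so that both channels were brighter together. The highest of these signals were on TB_TNF_KO replicate 2, at 8.58 in the sample and 9.23 in the reference channel, where the 5 other arrays had 8.16 to 8.37 and 8.84 to 9.01. Cd70, the ligand of CD27 on activated lymphocytes and dendritic cells, had the same shape. Its ratios were -0.07, -0.03 and -0.01 in B_TNF_KO and -0.07, -0.03 and -0.07 in TB_TNF_KO, and its signals on TB_TNF_KO replicate 2 were 9.72 and 10.73, against 9.24 to 9.44 and 10.25 to 10.52 elsewhere. Its difference was -0.03 (SE 0.04, 95% interval -0.13 to 0.08), and in each channel alone it was 0.10.

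Tnfrsf9 had log2 ratios of -0.38, -0.68 and -0.51 in B_TNF_KO and -0.48, -0.42 and -0.51 in TB_TNF_KO. All TB_TNF_KO arrays fell inside the range of the B_TNF_KO arrays. The difference was 0.05 (SE 0.09, 95% interval -0.17 to 0.26, limma adjusted p = 0.86). Tnfsf8 encodes the ligand of CD30 and is made by activated T cells. Its probe 1 had 0.95, 1.01 and 0.90 in B_TNF_KO and 0.84, 0.94 and 1.04 in TB_TNF_KO, and probe 2 had 0.79, 0.91 and 0.94, and 0.93, 0.73 and 0.81. Both overlapped, with differences of 0.01 (SE 0.06, 95% interval -0.14 to 0.16) and -0.06 (SE 0.06, 95% interval -0.21 to 0.08). For Cd70, Tnfsf4 and both Tnfsf8 probes the intervals thus bound any difference in the ratio at 0.21 in size.

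Several of these genes lie beside each other in the mouse genome, by the gene order of a RefSeq table of GRCm38.p6. Tnfrsf4 and Tnfrsf18 are adjacent protein-coding genes, as are Tnfsf4 and Tnfsf18, while Cd70 lies between Tnfsf9 and Tnfsf14, and Tnfsf8 beside Tnfsf15. The adjacent receptor genes differed by -0.16 and -0.28. The adjacent ligand genes Tnfsf4 and Tnfsf18, which encode the ligands of those receptors, differed by 0.03 and 0.01. None of these 4 passed the adjusted threshold.

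The partners outside the 10 genes were read from a list of 9 genes, of which 7 were measured and Tnfsf9 and Cd160 were matched to no probe. By limma 0 passed the adjusted threshold. At an unadjusted p under 0.05 there were 0 lower and 1 higher, against 11.2% and 5.02% of all probes. The higher one was Tnfsf14, which encodes LIGHT, a ligand of HVEM and of the lymphotoxin beta receptor, with means of 0.39 ± 0.03 (SD, n = 3) and 0.54 ± 0.06 (SD, n = 2). Its difference was 0.15 (SE 0.05, adjusted p = 0.23), with all TB_TNF_KO arrays above all B_TNF_KO arrays, as in 10.7% of all probes, and it was 0.22 in the sample channel alone. Tnfrsf8, the receptor for the Tnfsf8 product, differed by 0.07 (SE 0.06). Btla, an inhibitory receptor that binds HVEM, differed by -0.06 (SE 0.08), and by 0.26 in the sample channel alone. Lta, Ltbr and Siva1, a CD27-binding protein gene, differed by -0.26 (SE 0.14), -0.07 (SE 0.09) and -0.03 (SE 0.05). The second probes of Lta, Btla and Siva1 gave -0.04, 0.03 and 0.07.

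Of the TRAF adaptors and the non-canonical NF-kB genes through which these receptors signal, 13 of 14 were measured and 0 passed the adjusted threshold. At an unadjusted p under 0.05, 4 were lower and 0 higher, against 11.2% and 5.02% of all probes. The median difference was -0.09, beside -0.01 over all probes, and 11 of the 13 had lower values, against 55.0% of all probes. Birc2, a ubiquitin ligase of the TRAF complex, differed by -0.39 (SE 0.07, limma adjusted p = 0.081) and by -0.48 in the sample channel alone, but its second probe gave 0.01. Tank, a TRAF-binding protein gene, differed by -0.27 (SE 0.06), and Relb, the NF-kB subunit of the non-canonical arm, by -0.23 (SE 0.06). Traf2, the adaptor shared by most of these receptors, differed by -0.13 (SE 0.10). For Birc2, Tank and Relb all TB_TNF_KO arrays lay below all B_TNF_KO arrays, as in 17.0% of all probes. Their probes held 36.7%, 35% and 40% G or C, and the second Birc2 probe 51.7%. Lower values were more common among probes of low GC content. With the 6 arrays counted separately, adjusted p was 0.020, 0.038 and 0.042 for Birc2, Tank and Relb, where that fit called 4.58% of all probes lower.

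The other main family of costimulators, CD28 and B7, had all 10 genes measured. None passed the adjusted threshold by limma. At an unadjusted p under 0.05, 3 were lower and 2 higher, against 11.2% and 5.02% of all probes. The median difference was -0.10, and it was -0.02 in the sample channel alone. Pdcd1lg2, a ligand of PD-1, differed by -0.47 (SE 0.06, adjusted p = 0.055), and Icos, the costimulator of follicular helper T cells, by -0.39 (SE 0.07, adjusted p = 0.078). In both, the sample channel alone differed by -0.01, while the reference channel differed by 0.42 and 0.30. Their lower ratios thus went with a brighter reference signal. The Pdcd1lg2 and Icos probes held 35% and 40% G or C. Pdcd1, encoding PD-1, differed by 0.33 (SE 0.10, adjusted p = 0.18) and by 0.27 in the sample channel alone. Cd274 differed by -0.18 (SE 0.11).

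Genes known to respond to CD40 engagement were read from a list of 14, of which 11 were measured. In limma 0 passed the adjusted threshold. At an unadjusted p under 0.05, 2 were lower and 0 higher, against 11.2% and 5.02% of all probes. By sign 9 of 11 were lower, against 55.0% of all probes. The median difference was -0.10, beside -0.01 over all probes. Ccl22, a chemokine gene of mature dendritic cells, had means of 1.64 ± 0.07 (SD, n = 3) and 0.96 ± 0.33 (SD, n = 2). Its difference was -0.68 (SE 0.13, limma adjusted p = 0.089), and it was -0.86 in the sample channel (adjusted p = 0.049 there) and -0.43 in the reference channel. Its probe held 26.7% G or C, in the class where lower values were most common. Icam1, an adhesion molecule gene, differed by -0.25 (SE 0.07, adjusted p = 0.15), by -0.20 in the sample channel and by -0.16 in the reference channel. Ccl17, a chemokine gene, and Bcl2a1a, a survival gene, differed by -0.26 (SE 0.13) and -0.19 (SE 0.08), and the second Bcl2a1a probe gave -0.03. In the sample and reference channels Ccl17 differed by -0.30 and -0.12, and the brighter Bcl2a1a probe by -0.22 and -0.24. Ccl22, Ccl17 and Icam1 had no overlap between the groups, with TB_TNF_KO the lower, as in 17.0% of all probes.

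**Figure D4:**
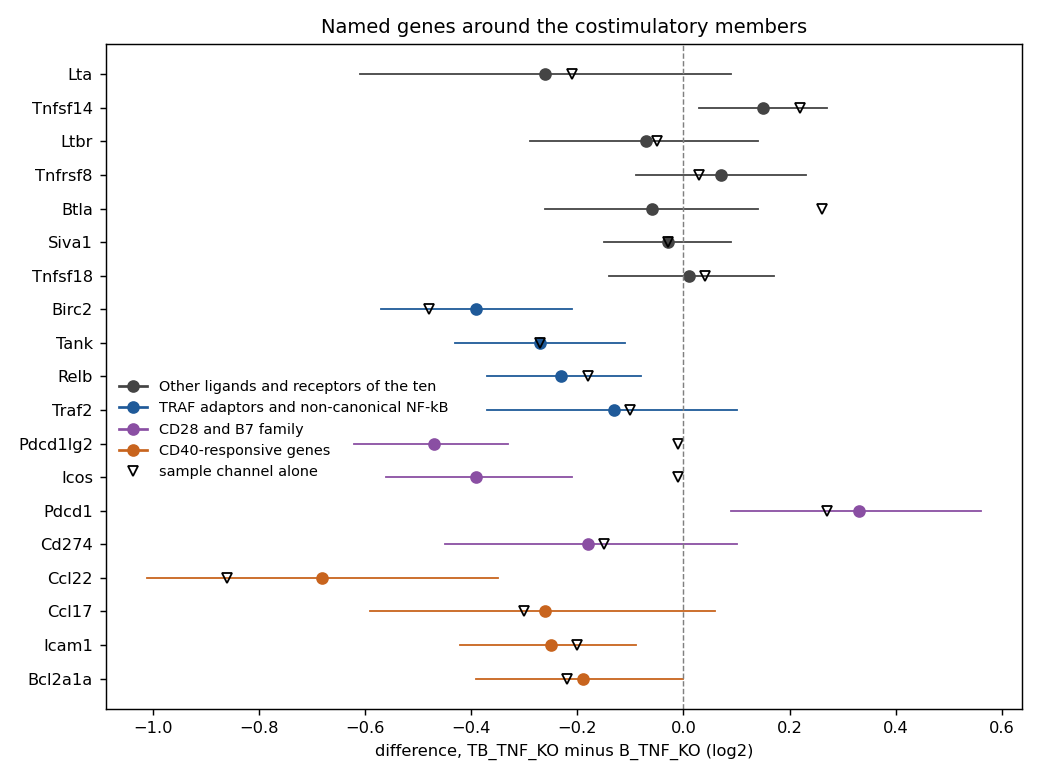
Differences TB_TNF_KO minus B_TNF_KO on the log2 scale (horizontal axis) for named genes of 4 lists around the members, with 95% intervals from limma (coloured points and lines) and the difference in the sample channel alone (open triangles). For Pdcd1lg2 and Icos the ratio lies at -0.47 and -0.39 while the sample channel lies at -0.01.

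The genes whose profile over the arrays came closest to a member were found by the root mean square distance between centred log2 ratios, over 12179 genes with a symbol, for the 3 member genes with the widest range in their brightest probe. For Tnfrsf18, over the 5 arrays that measured it, these were Ube2v2 (distance 0.007) and Abcg3 (0.008). For Tnfrsf4 they were Pdgfd (0.014) and Dpy30 (0.025), and for Cd40 probe 1 they were Sf3a3 (0.014) and Ggcx (0.018), each over 6 arrays. Sf3a3 had log2 ratios of -0.28, -0.15 and -0.13 in B_TNF_KO and -0.42, -0.39 and -0.39 in TB_TNF_KO, which has the shape of Cd40 probe 1 at another level. The names are given as a description.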

How the data were processed

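Mesenteric lymph node RNA was hybridised with a common reference on 6 two-colour arrays. Per the file headers, the authors extracted the images with Agilent Feature Extraction A.7.5.1. The deposited files give, for each spot, the signal and background intensity of each dye. They also give the Cy5 to Cy3 log10 ratio with an error. The deposited series table holds log10 values whose centring and direction are not stated. It was used as an alternative.

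Mean intensities were corrected with normexp (offset 50) and normalised by loess within arrays (limma 3.58.1 under R 4.3.3), with control spots at weight 0; 228 outlier spots were left out. Probes well above background in the sample channel on at least 3 arrays were kept (40791 of 41006). Of 41034 spots, 15303 received a symbol through a RefSeq table of GRCm38.p6. Every probe was fitted with lmFit and eBayes, and p-values were adjusted by Benjamini-Hochberg over the 40790 tested. For single channels, log2 intensities were quantile scaled, so that channel differences need not add up to the difference of the loess ratio. In lists a gene was represented by its brightest probe. The fit was tested on simulated data.

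Members, lists and tests were chosen with earlier results of these data known. Named were all members, the partner list, the 4 largest differences of each other list of genes around the members, and 2 nearest profiles for 3 members; the other tissue markers are given as list values only. The labels do not say that equal replicate numbers pair the groups, and the data pair them only in part. Deviations from the group means correlated by 0.13, 0.53 and 0.62 over 40583 probes for replicates 1, 2 and 3. TB_TNF_KO replicate 1 correlated more with B_TNF_KO replicate 2 (0.43) than with B_TNF_KO replicate 1. The fits with the replicate block assume this pairing. Nothing but the label says that pools came from separate animals, and p-values measure the spread between these samples. The number of arrays limits the precision. Alternatives covered background, normalisation, channel, filters, probe handling, spread model, GC content and arrays left out. Figures were drawn with matplotlib 3.10.9.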

Additional observations from a re-analysis of the deposited data

How the results depend on the processing

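The alternative that kept outlier spots was chosen after seeing the data. Over 26 alternatives the difference stayed negative for Tnfrsf18 (-0.40 to -0.19), Cd40 probe 1 (-0.25 to -0.16) and Cd40lg (-0.17 to -0.04). Against 6 lower and 0 higher probes over the array, the sample channel alone called 211 and 193, the 6 arrays counted separately 1868 and 597, the replicate block 2535 and 738, an intensity trend with a robust prior 411 and 148, and array weights 314 and 100. Lower calls numbered 0 with plain or no background subtraction, with the authors' series table, with TB_TNF_KO replicate 3 as its group's only array and with replicates 1 and 2 alone, 1 with the Feature Extraction ratio and 2 with probes of a gene averaged; leaving out single arrays gave 0 to 5. Of the members, 1 passed the adjusted threshold with the 6 arrays counted separately (Tnfrsf18) and 1 with the replicate block (Cd40 probe 1, adjusted p 0.043 by limma, 0.043 to 0.65 over its alternatives). Counts of members at an unadjusted p under 0.05 by limma are given for fits with more than 1 sample in each group. Against 2 lower, the block gave 4, and median centring and leaving out TB_TNF_KO replicate 1 each gave 3. The sample channel (with 1 higher), averaged probes and the intensity trend each gave 1. The sign turned in the sample channel for Tnfrsf4 (0.14), Cd70 (0.10), Tnfrsf9 (-0.11) and Tnfsf8 probe 2 (0.07), with median centring for Tnfsf4 (-0.01), and with TB_TNF_KO replicate 3 as its only array for Cd40 probe 2 (0.02). Tnfsf8 probe 1 turned with averaged probes (-0.03), the 6 arrays separately (-0.02), the block (-0.02) and replicates 1 and 2 alone (-0.09). Leaving out single arrays gave -0.06 to 0.04 for Tnfsf8 probe 1 and -0.03 to 0.12 for Tnfrsf9. The cause was not tested. Replicate 3 alone gave values with no test. The dimmest member probe, Tnfsf8 probe 2, had reference intensities of 75 to 131 after background subtraction, and single-array errors of up to 0.37 (log2).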
